A study of Mus musculus with 7 samples.

Results

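The genes described here carry out the unfolded protein response and protein folding in the endoplasmic reticulum (ER), measured in bone marrow mesenchymal stromal cells. They were chosen by name, as 33 symbols of ER stress sensors and their transcription factors, chaperones, disulfide isomerases, degradation factors and translocon subunits, out of 53801 gene IDs counted in each library. All 33 symbols were found. Ddit3 has 2 IDs. The second has 105 exon bases, and its largest overlap with a single exon of the other is 63 bases. This second ID held 0 counts in every library and was not used. Male C57BL/6 mice, 8 weeks old at the start, were injected intraperitoneally once a day for 35 days with 100 µl of either DPBS, a buffered saline, or 500 µg/kg of a fibroblast activation protein inhibitor (FAPi). There were 4 FAPi and 3 DPBS mice, with 1 library per replicate, so p-values measure the spread between these libraries. No genetic alteration is given for either group, and the inhibitor is not identified in the sources used here. Each library came from 7000 live limb bone cells, sorted for Pdgfra, a stromal surface marker, and against CD45, Ter119 and Tie2, which mark blood, erythroid and endothelial cells. Libraries were made by a modified Smart-seq2 method, which copies polyadenylated RNA of small samples, so each value is an average over a sorted population. The comparison asks how transcripts of ER folding and stress signalling stood after treatment of the whole animal.

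Secreted and membrane proteins enter the ER through the Sec61 channel and are folded there by chaperones, lectins and disulfide isomerases. Proteins that fail to fold are passed back to the cytosol and degraded. When unfolded proteins build up, the sensors IRE1 (Ern1), PERK (Eif2ak3) and ATF6 signal to the nucleus: IRE1 splices the Xbp1 mRNA, PERK slows translation and favours ATF4, and ATF6 is cut to release a transcription factor. Stromal and bone-forming cells secrete large amounts of collagen and other matrix, and the response is known to be used in their differentiation. Gene counts do not separate spliced from unspliced Xbp1, nor do they measure cleavage of ATF6 or phosphorylation of PERK.

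Many ER chaperone genes carry an ER stress response element (ERSE) in their promoters, which is bound by ATF6 and XBP1 together with the factor NF-Y. RefSeq promoter sequences (build GRCm38.p6) were available for 28 of the 33 genes, and the 250 bases before the start site were searched on both strands for exact letters. The ERSE, written as CCAAT, then any 9 bases, then CCACG, was found in 9 of the 28 promoters, against 35 of the 27025 genes in the promoter table, or 0.13%. Of the 9 promoters, 6 belonged to the 9 chaperone genes with a sequence. The genes were chosen for their role in ER stress, so this share describes the list and is no test. The first sequences below are the whole 250 bases before the start sites of Creld2 and Dnajc3, chaperone-group genes that were highest in a DPBS library, and of Canx, which was highest in a FAPi library. Capitals mark the ERSE, each sequence reads 5′ to 3′ in the direction of its gene, and in Creld2 the element lies on the opposite strand. None of the 3 stretches overlaps an annotated exon in GENCODE M21.
Creld2, chr15:88819396-88819645, plus strand: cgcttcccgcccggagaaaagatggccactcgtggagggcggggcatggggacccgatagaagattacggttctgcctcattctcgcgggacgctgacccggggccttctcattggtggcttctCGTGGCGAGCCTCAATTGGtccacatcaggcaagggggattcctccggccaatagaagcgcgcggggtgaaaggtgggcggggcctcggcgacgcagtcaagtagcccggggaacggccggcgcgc
Dnajc3, chr14:118937682-118937931, plus strand: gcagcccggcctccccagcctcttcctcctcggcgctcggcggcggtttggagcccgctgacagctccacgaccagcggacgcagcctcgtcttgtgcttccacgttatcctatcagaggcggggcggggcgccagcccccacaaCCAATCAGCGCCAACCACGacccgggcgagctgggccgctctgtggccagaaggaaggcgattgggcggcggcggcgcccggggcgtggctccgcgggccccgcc
Canx, chr11:50325674-50325923, minus strand: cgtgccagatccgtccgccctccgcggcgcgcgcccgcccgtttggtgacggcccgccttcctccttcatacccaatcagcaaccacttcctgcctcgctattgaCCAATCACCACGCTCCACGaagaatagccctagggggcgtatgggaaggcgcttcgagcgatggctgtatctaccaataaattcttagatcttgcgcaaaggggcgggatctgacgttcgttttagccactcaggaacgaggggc

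The other exact ERSE matches are shown with 5 bases on either side, to let the elements be compared. The matches lie between 44 bases (Syvn1) and 212 bases (the farther site of Hsp90b1) before the start site. Those of Calr, Derl3 and the nearer Hsp90b1 site read on the opposite strand. The stretch of Hspa5 lies within an exon that GENCODE M21 gives to a longer Hspa5 transcript.
Hspa5, chr2:34772020-34772048, plus strand: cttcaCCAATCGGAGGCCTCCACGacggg
Hsp90b1, nearer site, chr10:86705528-86705556, minus strand: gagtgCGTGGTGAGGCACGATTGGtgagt
Hsp90b1, farther site, chr10:86705633-86705661, minus strand: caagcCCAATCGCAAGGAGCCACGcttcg
Calr, chr8:84847070-84847098, minus strand: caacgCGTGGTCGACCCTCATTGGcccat
Pdia6, chr12:17266486-17266514, plus strand: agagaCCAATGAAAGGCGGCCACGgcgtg
Syvn1, chr19:6046527-6046555, plus strand: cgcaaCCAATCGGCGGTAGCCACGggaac
Derl3, chr10:75893237-75893265, plus strand: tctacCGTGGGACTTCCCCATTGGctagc

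Herpud1 held the shorter element ERSE II (ATTGG, then any 1 base, then CCACG), found in 10 of the 27025 genes, and also a C/EBP-ATF response element (CARE, TGATGNAA), the composite site through which ATF4 acts. The CARE letters were found in 1056 of the 27025 genes (3.91%) and in 3 of the 28 members, Herpud1, Chac1 and Asns. With the 50 bases after the start site included, Trib3 also held a CARE, making 4 of the 28 members beside 4.51% of all genes. In that longer window Dnajb11 also held an ERSE II, making 2 of the 28 members beside 12 of the 27025 genes. The stretch of Herpud1 below carries the CARE on the opposite strand and then the ERSE II. In Asns the CARE, whose stretch lies in an Asns exon of GENCODE M21, reads with the gene. The element TGACGTGG (UPRE) was in 0 of the 28 promoters and in 163 genes of the table. A match is a description of letters, and says nothing of binding in these cells.
Herpud1, chr8:94386307-94386397, plus strand: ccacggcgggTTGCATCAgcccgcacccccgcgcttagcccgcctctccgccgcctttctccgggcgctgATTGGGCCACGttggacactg
Asns, chr6:7693215-7693242, minus strand: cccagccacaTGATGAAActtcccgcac

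Levels are given as CPM, counts scaled by library size with TMM factors, unless another scale is named. Total gene counts ran from 9228260 to 10569690 in DPBS and from 7492570 to 9226841 in FAPi libraries, without overlap. All 10 stromal marker genes were detected, and their summed level was 75130.2 to 83095 CPM in DPBS and 87242 to 89497 CPM in FAPi libraries. Most of that sum was 1 gene, Igfbp5, at 49725.9 to 59591.3 CPM in DPBS and 59527 to 65042.5 CPM in FAPi libraries, with overlap. Taken singly, the log2 differences of the 10 stromal genes ran from -0.33 to 0.24, with 6 positive and 4 negative. The groups were separate at 1 of the 10, so the sums do not show a higher stromal content in FAPi libraries. The sort should have removed blood cells, but erythroid markers summed to 1659 to 15165 CPM in DPBS and 1542 to 3076 CPM in FAPi libraries, highest in DPBS replicate 2. Neutrophil markers summed to 654 to 2824 and 195 to 632 CPM, macrophage markers to 158 to 363 and 102 to 161 CPM, and B lineage and plasma cell markers to 38.0 to 527 and 39.9 to 459 CPM. Of the T and NK cell markers, Cd3d, Cd3e, Trbc1, Trbc2 and Klrb1c were at 0 counts in every library, as was the plasma cell receptor gene Tnfrsf17. Endothelial markers summed to 22.2 to 60.2 CPM in DPBS and 21.8 to 357 CPM in FAPi libraries, and megakaryocyte markers to 108 to 499 and 87.6 to 173 CPM. The endothelial sum of 357 CPM was that of FAPi replicate 1, where Kdr alone had 339 CPM. Of the 5 tested endothelial genes, 1 was highest in that library. In sorted bulk samples, a smaller share of cells of a type and less RNA per cell cannot be told apart.

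The folding genes were among the well expressed genes of these cells. On a scale of CPM per kilobase of exon, averaged over the 7 libraries, 15 of the 30 members that passed the low-count filter lay above the 90th percentile of all tested genes and 27 lay above the median. The lectin chaperone genes Canx (calnexin) and Calr (calreticulin) had the highest levels per kilobase, at 479 and 455 CPM per kb. They were followed by Herpud1 at 312, Hsp90b1 at 168 and Hspa5 at 146 CPM per kb. The stress sensors were far lower, with 6.45 CPM per kb for Atf6, 2.56 for Eif2ak3 and 0.390 for Ern1. All 33 genes together took between 0.676% and 0.938% of the counts of a library. The values of every tested member in every library are plotted by role.

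**Figure D1:**
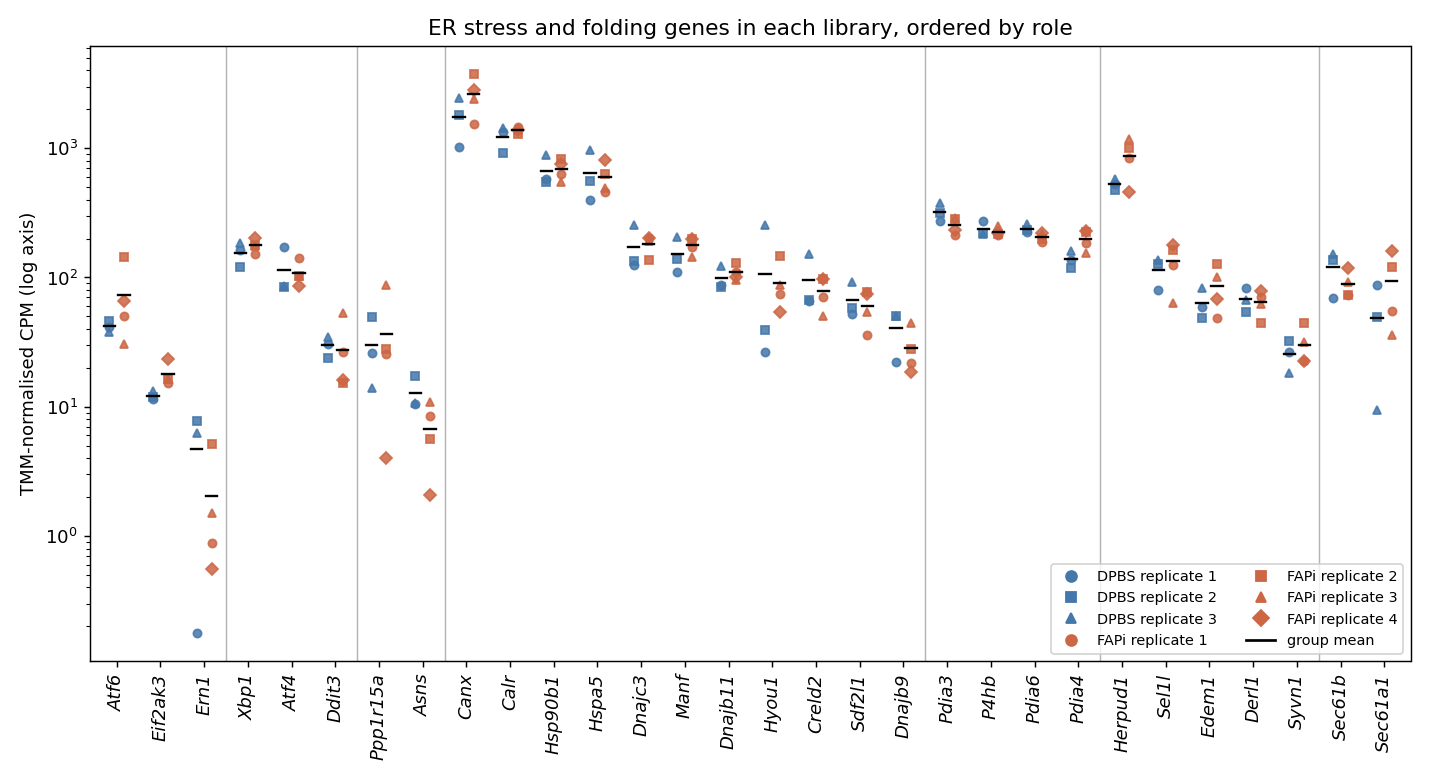
TMM-normalised CPM (log axis) of the 30 members that passed the low-count filter, in 3 DPBS (blue) and 4 FAPi (orange) libraries; marker shape gives the replicate number, black bars the group means, and grey lines separate the roles from sensors on the left to the translocon on the right. Canx is highest, from 1021 to 3757 CPM, Ern1 is lowest, from 0.178 to 7.78 CPM, and the groups overlap at all but Eif2ak3 and Pdia6.

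The other 3 members were at or near 0. Trib3, a pseudokinase gene induced by CHOP, and Chac1, an ATF4 target that breaks down glutathione, held 0 counts in all 7 libraries, out of 62585239 counts in all. With 3 counts as the limit that a count of 0 allows, each could have had up to 0.284 CPM in the deepest and 0.400 CPM in the shallowest library, on the scale of library totals. A listed 0 need not measure the transcript: Med10, Vps37b and Mrpl53, which most cells use and which were looked up after the values were seen, also held 0 counts in every library. The stress gene Atf3 was at 0 counts as well. Of the 21967 protein coding genes, 7889 were at 0 counts in every library. Derl3, a derlin of secretory cells, had 16 counts in DPBS replicate 3, 1 count each in DPBS replicate 2 and FAPi replicate 1, and 0 in the others. The B lineage and plasma cell marker sum of DPBS replicate 3 was the lowest of the 7 libraries, at 38.0 CPM, and the source of the Derl3 counts was not tested.

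No member differed between FAPi and DPBS mice past the threshold. In edgeR's quasi-likelihood test with Benjamini-Hochberg adjustment over the 12930 tested genes, 0 of the 30 tested members passed an adjusted p under 0.05, where 0% of all tested genes passed, and the adjusted p-values of the members ran from 0.575 to 0.991. DESeq2 called 0 of the 30 members, beside 135 of all tested genes (1.04%). At an unadjusted p under 0.05 there was 1 member, Herpud1, or 1 of 30 where 8.14% of all genes had such a p. The estimates split evenly, with 16 members higher and 14 lower in FAPi mice and a median log2 difference of 0.07, beside 6537 higher and 6393 lower genes and a median of 0.01 over all tested genes. The groups did not overlap at Eif2ak3, which was higher in FAPi mice, where 3.4% of all tested genes were separate in that direction, and at Pdia6, which was lower, where 3.94% were. In each direction 1 of 30 members is close to the share of all genes. Standard errors (SE) of the log2 differences ran from 0.22 (Calr) to 1.21 (Ern1), with a median of 0.34.

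**Figure D2:**
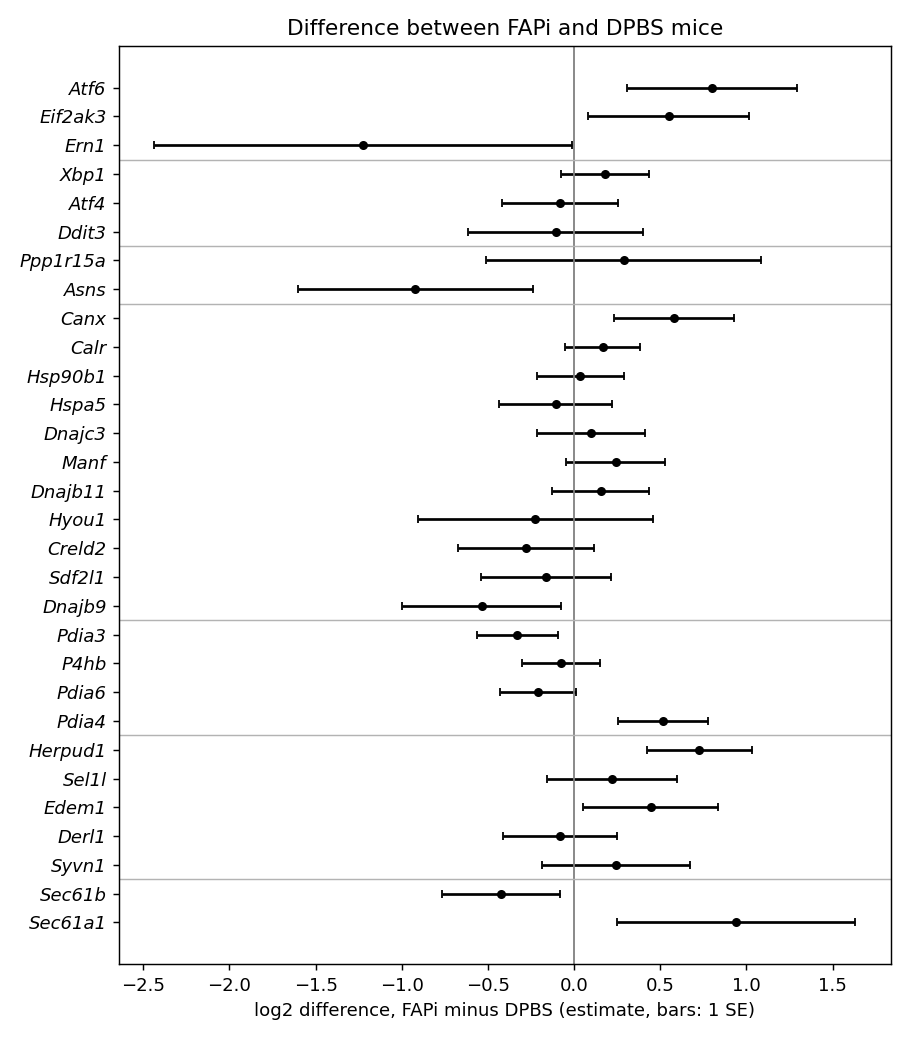
Log2 difference between FAPi and DPBS mice for the 30 tested members, in the order of roles used for the plot of levels; points are edgeR estimates from 4 FAPi and 3 DPBS libraries, bars are 1 SE, and grey lines separate the roles. The estimates lie on both sides of 0, from -1.22 for Ern1 to 0.94 for Sec61a1.

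Of the 3 sensors, Eif2ak3 and Atf6 had higher and Ern1 a lower estimate in FAPi mice, and none passed the test. Eif2ak3 encodes PERK, the kinase that phosphorylates the translation factor eIF2 alpha. Its levels were 11.4, 11.98 and 13.1 CPM in DPBS replicates 1 to 3 and 15.2, 16.4, 16.5 and 23.2 CPM in FAPi replicates 1 to 4, so every FAPi library lay above every DPBS library. The log2 difference was 0.55 ± 0.47 (SE; adjusted p = 0.811, edgeR), and the exact permutation test of mean log2 CPM gave p = 0.0286, the smallest that 3 against 4 libraries can give, unadjusted and the only value under 0.05 among 30 such tests. Eif2ak3 exons overlap those of a gene model on the other strand, Gm43292, and the strand setting of the counting is not known.

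Atf6 encodes the membrane-bound transcription factor that is released in the Golgi. It had 41.7, 45.9 and 37.9 CPM in DPBS libraries and 50.6, 145, 30.5 and 65.8 CPM in FAPi libraries. FAPi replicate 2 stood highest, while FAPi replicate 3 lay below all DPBS libraries. The log2 difference of 0.80 ± 0.49 (adjusted p = 0.716, edgeR) became 0.21 without FAPi replicate 2. Ern1, the gene of IRE1, had 0.178, 7.78 and 6.29 CPM in DPBS and 0.875, 5.15, 1.51 and 0.556 CPM in FAPi libraries. DPBS replicate 1 held 2 counts and FAPi replicate 4 held 4, near the floor of 3 counts, while DPBS replicate 2 held 74. The group difference of -1.22 ± 1.21 was about the size of its error, and it ran from -2.26 without FAPi replicate 2 to -0.68 without DPBS replicate 2.

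The 3 transcription factors of the response had 1 higher and 2 lower estimates, each smaller than its SE. Xbp1, the factor downstream of IRE1, had a mean of 156 CPM (SD 32.3, n = 3) in DPBS mice and of 177 CPM (SD 20.2, n = 4) in FAPi mice, a log2 difference of 0.18 ± 0.26. Atf4, whose protein is made when eIF2 alpha is phosphorylated, had 114 ± 50.7 and 108 ± 22.9 CPM (log2 difference -0.08 ± 0.34). DPBS replicate 1 was highest at Atf4 with 173 CPM, and the other 6 libraries had 84.5 to 140.4 CPM. Without DPBS replicate 1 the log2 difference of Atf4 was 0.34. Ddit3, which encodes the pro-death factor CHOP, had 29.8 ± 5.40 and 27.7 ± 17.6 CPM (log2 difference -0.11 ± 0.51). Its FAPi libraries spanned both extremes, from 15.2 CPM in replicate 2 to 53.0 CPM in replicate 3. Exons of Ddit3 overlap those of Mars on the other strand.

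Of the 4 targets of the integrated stress response, the branch that runs through eIF2 alpha and ATF4, Asns and Ppp1r15a could be tested. Asns, the asparagine synthetase gene whose CARE is shown above, had 10.4, 17.3 and 10.7 CPM in DPBS and 8.50, 5.67, 10.8 and 2.09 CPM in FAPi libraries. FAPi replicate 3 lay within the DPBS range and the other 3 FAPi libraries lay below it (log2 difference -0.92 ± 0.68, adjusted p = 0.769, edgeR). Ppp1r15a encodes GADD34, the phosphatase subunit that reverses eIF2 alpha phosphorylation. It had 26.1, 49.3 and 14.1 CPM in DPBS and 25.6, 27.96, 88.1 and 4.03 CPM in FAPi libraries, so the highest and the lowest library were both FAPi, 21.8-fold apart. Early response genes, which tissue dissociation can induce and of which 10 of 11 were detected (Atf3 at 0), summed to 993, 1011 and 302 CPM in DPBS and 1195, 235, 1801 and 254 CPM in FAPi libraries. FAPi replicate 3 was highest and FAPi replicates 2 and 4 were lowest in that sum, and its part in the spread of Ppp1r15a was not tested. Fos, the most abundant of these genes, alone had 1410 CPM in FAPi replicate 3. Of the 10 tested early response genes, Fos had a higher estimate in FAPi mice and the other 9 a lower one. The log2 difference of Ppp1r15a, 0.29 ± 0.80, was -0.63 without FAPi replicate 3 and 0.86 without DPBS replicate 2.

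The 11 chaperone and cochaperone genes had 6 higher and 5 lower estimates in FAPi mice, with a median log2 difference of 0.04, and the spread among DPBS libraries was wide. Hspa5, which encodes BiP, the central Hsp70 chaperone of the ER, had 397, 557 and 976 CPM in DPBS replicates 1 to 3 and 459, 631, 495 and 805 CPM in FAPi replicates 1 to 4. The lowest and the highest library were both DPBS, and the FAPi libraries lay between them (log2 difference -0.11 ± 0.33, adjusted p = 0.970, edgeR). Hyou1, the gene of the large Hsp70 relative GRP170 that exchanges nucleotide on BiP, had 26.5, 39.2 and 252 CPM in DPBS and 74.1, 147, 88.1 and 54.2 CPM in FAPi libraries. The FAPi libraries lay above DPBS replicates 1 and 2 and below DPBS replicate 3. Creld2, an ER stress-induced gene with EGF-like domains, had 65.8, 67.4 and 153 CPM in DPBS and 70.6, 96.5, 50.6 and 96.8 CPM in FAPi libraries.

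DPBS replicate 3 was the highest library at 7 of the 11 genes, which were Hspa5, Hsp90b1, Hyou1, Dnajc3, Sdf2l1, Manf and Creld2, where it was highest at 13.7% of all tested genes. All 11 genes lay above their own 7-library mean in DPBS replicate 3, and 1 of 11 did in each of the other 2 DPBS libraries. Over all tested genes 50.5% lay above their mean in DPBS replicate 3. The median deviation of the 11 genes from their means was 0.56 on the log2 scale in DPBS replicate 3, 0.29 in FAPi replicate 2 and 0.22 in FAPi replicate 4. It was -0.08 in FAPi replicate 1, -0.11 in FAPi replicate 3, -0.26 in DPBS replicate 2 and -0.46 in DPBS replicate 1. The 3 libraries with positive medians were those with the lowest sums of early response genes. That order leans on 1 gene, Fos, which had 101 to 123 CPM in these 3 libraries and 601 to 1410 CPM in the others. In DPBS replicate 3 Fos made up 101 of 302 CPM, and in FAPi replicate 1 it made up 1015 of 1195 CPM. Without Fos the sum of FAPi replicate 1 lay below that of DPBS replicate 3, so the order did not hold. Osteoblast markers, all 7 detected, summed to 15792, 24578 and 27482 CPM in DPBS and 14110.4, 24951, 19236 and 24967 CPM in FAPi libraries, highest in DPBS replicate 3. Taken singly, 2 of the 7 genes were highest in DPBS replicate 3 and 3 in FAPi replicate 3. Ibsp, the most abundant of them, was highest in FAPi replicate 4. Megakaryocyte markers, all 4 detected, were also highest in DPBS replicate 3, with a sum of 499 CPM beside 87.6 to 189 CPM in the other 6 libraries, and 3 of the 4 genes were highest there. The part of these 3 marker lists in the chaperone levels was not tested.

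**Figure D3:**
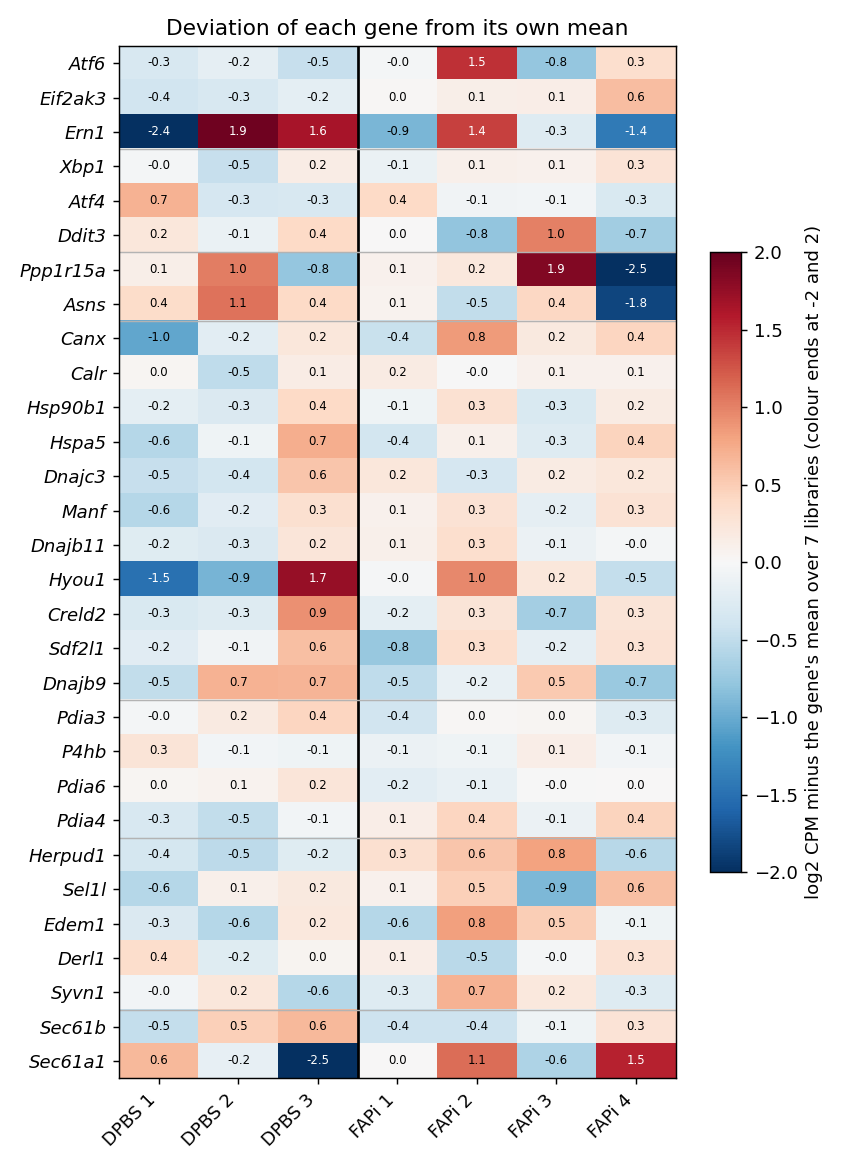
Log2 CPM of each tested member in each library minus that gene's mean over the 7 libraries, printed in each cell and coloured from blue (below) to red (above); colours end at -2 and 2, the black line separates DPBS from FAPi libraries and grey lines separate roles. The block of chaperone genes is above its means in DPBS replicate 3, by 1.7 at Hyou1, and mostly below in DPBS replicates 1 and 2.

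Without DPBS replicate 3, 10 of the 11 chaperone genes had a higher estimate in FAPi mice, with a median log2 difference of 0.32, beside 52.4% of all genes and a median of 0.05. None passed the test in that fit (smallest adjusted p = 0.534, edgeR), and 2 had an unadjusted p under 0.05, Hyou1 and Canx, where 1084 of all 13736 genes in that fit had such a p and 3 were called. That library was singled out because it was high at these genes, so leaving it out raises each estimate by construction, and the shift is no separate evidence. The difference of Hyou1 went from -0.22 ± 0.68 to 1.46 ± 0.49, that of Hspa5 from -0.11 to 0.32, and that of Creld2 from -0.28 to 0.24. Without DPBS replicate 2 instead, 3 of the 11 genes had a higher estimate, and without DPBS replicate 1, 4 did. The direction of the chaperone estimates therefore depended on which DPBS library was left out.

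**Figure D4:**
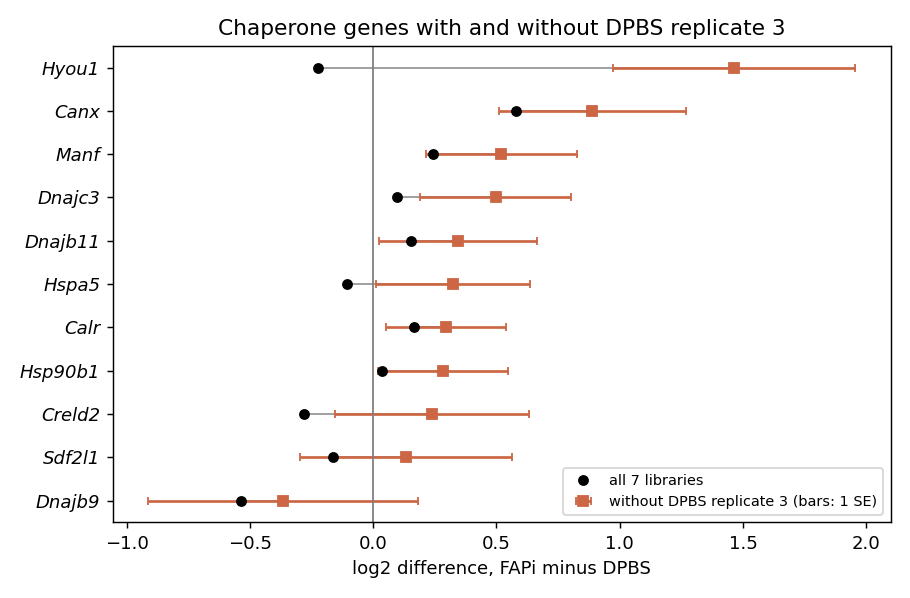
Log2 difference between FAPi and DPBS mice for the 11 chaperone and cochaperone genes with all 7 libraries (black circles) and without DPBS replicate 3 (orange squares, bars 1 SE; 4 FAPi against 2 DPBS libraries). Every estimate is higher without that library, as follows from its being above the mean at all 11 genes; Hyou1 moves most and Dnajb9 stays below 0.

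Canx was the most abundant chaperone gene, and its groups overlapped. Canx, a membrane lectin that holds glycoproteins during folding, had 1021, 1803 and 2438 CPM in DPBS and 1536, 3757, 2391 and 2805 CPM in FAPi libraries. DPBS replicate 1 was lowest and FAPi replicate 2 highest, and the log2 difference was 0.58 ± 0.35 (adjusted p = 0.710, edgeR). It was 0.30 without DPBS replicate 1 and 0.89 without DPBS replicate 3. Calr, the soluble partner of calnexin and a store of calcium, had a mean of 1225 CPM (SD 276, n = 3) in DPBS mice and of 1376 CPM (SD 64.3, n = 4) in FAPi mice, and has a processed pseudogene that can share its reads. Hsp90b1, which encodes GRP94 and serves integrins and other client proteins, had 669 ± 185 and 686 ± 124 CPM. The Hsp40 cochaperones of BiP gave log2 differences of 0.15 ± 0.28 for Dnajb11, 0.10 ± 0.31 for Dnajc3 and -0.54 ± 0.46 for Dnajb9. Sdf2l1, which works with Dnajb11, differed by -0.16 ± 0.38, and Manf, a secreted factor that binds BiP, by 0.24 ± 0.29. Manf and Hsp90b1 share exon bases with genes on the other strand.

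The 4 disulfide isomerases had 1 higher and 3 lower estimates in FAPi mice, and the highest library of each was less than 2-fold the lowest. P4hb, which encodes protein disulfide isomerase and also the beta subunit of collagen prolyl 4-hydroxylase, had 275, 221 and 217 CPM in DPBS and 212, 218, 252 and 221 CPM in FAPi libraries. Its highest value was 1.297-fold its lowest, the narrowest range of the 30 tested members, whose median ratio was 2.44, beside 5.003 over all tested genes with a count in every library. Pdia6, also called P5, had 227, 231 and 259 CPM in DPBS and 189, 199, 218 and 222 CPM in FAPi libraries. The FAPi libraries all lay below the DPBS libraries, by a log2 difference of -0.21 ± 0.22 (adjusted p = 0.861, edgeR; two-sided exact permutation p = 0.0571). Pdia3, the isomerase that works with calnexin and calreticulin, had 320 ± 51.2 and 255 ± 36.6 CPM (log2 difference -0.33 ± 0.24). Pdia4, also called ERp72, had a higher estimate, with 135, 119 and 161 CPM in DPBS and 184, 226, 155 and 228 CPM in FAPi libraries. FAPi replicate 3 fell within the DPBS range at Pdia4, and the log2 difference was 0.51 ± 0.26 (adjusted p = 0.653, edgeR; two-sided exact permutation p = 0.0857).

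Among the degradation genes, 4 of 5 tested members had higher estimates in FAPi mice, with a median log2 difference of 0.24. Herpud1, a stress-induced scaffold of the ubiquitin ligase complex in the ER membrane, had the smallest unadjusted p of all members. It had 532, 475 and 579 CPM in DPBS and 847, 1006, 1187 and 462 CPM in FAPi libraries. FAPi replicates 1 to 3 lay above every DPBS library and FAPi replicate 4 lay below them all. The log2 difference was 0.73 ± 0.31 (unadjusted p = 0.0370, adjusted p = 0.575, edgeR), and the two-sided exact permutation test gave p = 0.171. The estimate stayed between 0.55 and 0.95 when each library was left out in turn. Of these edgeR fits, only the one without FAPi replicate 4 gave Herpud1 an unadjusted p under 0.05. DESeq2, edgeR with library totals and limma on deposited CPM gave it no such p. RLE scaling, no low-count filter, voom weights and the replicate block did. Sums of early response genes were 1195, 235 and 1801 CPM in the 3 FAPi libraries with high Herpud1, and 254 CPM in FAPi replicate 4. Their part in the difference was not tested.

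Sel1l and Syvn1 encode the adaptor and the ubiquitin ligase HRD1 of the complex that Herpud1 joins. Sel1l had 114 ± 30.2 and 133 ± 51.6 CPM (log2 difference 0.22 ± 0.38), and Syvn1, whose exons overlap those of Mrpl49, had 25.5 ± 6.86 and 30.3 ± 10.2 CPM (log2 difference 0.24 ± 0.43). Edem1, which trims mannose from misfolded glycoproteins and hands them over for degradation, had 58.6, 48.2 and 82.97 CPM in DPBS and 48.6, 127, 102 and 67.6 CPM in FAPi libraries. FAPi replicates 2 and 3 lay above every DPBS library and the other 2 FAPi libraries lay within the DPBS range. The log2 difference was 0.44 ± 0.39, and it was 0.19 without FAPi replicate 2. Derl1, a channel-forming derlin, differed by -0.08 ± 0.33.

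The translocon genes gave estimates of opposite sign. Sec61a1, which encodes the pore of the channel, had 86.8, 49.1 and 9.48 CPM in DPBS and 55.4, 121, 36.1 and 160.3 CPM in FAPi libraries, a 16.9-fold range. DPBS replicate 3, the library with the highest median deviation of the chaperone genes, was lowest at Sec61a1. The log2 difference was 0.94 ± 0.69 (adjusted p = 0.769, edgeR), and it was 0.45 without DPBS replicate 3 and 1.66 without DPBS replicate 1. Up to 388 bases of a Sec61a1 exon are shared with an antisense gene, Gm44170. Sec61b, the small beta subunit, had 69.9, 137 and 153 CPM in DPBS and 73.4, 73.3, 92.1 and 118 CPM in FAPi libraries (log2 difference -0.42 ± 0.34). At this gene DPBS replicate 3 was highest, and the difference was -0.21 without it and -0.70 without DPBS replicate 1.

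Related genes outside the list were also below the threshold. Of 179 genes in 8 lists, 166 could be tested, and 0 passed edgeR or DESeq2. In edgeR 6 of the 166 had an unadjusted p under 0.05, where 8.14% of all tested genes had such a p. The groups did not overlap at 4 genes that were higher and 4 that were lower in FAPi mice. Over all tested genes, 3.4% and 3.94% were separate in these directions, so the separate genes named below are no excess. Of these 166, 87 had a higher and 79 a lower estimate, and the median was 0.02 on the log2 scale. Other ER chaperones and prolyl isomerases had 10 higher and 12 lower of 22 tested, and DPBS replicate 3 was highest at 5 of them. Cnpy3, a cochaperone of GRP94, was at 156 CPM in FAPi replicate 3 and between 11.8 and 47.4 CPM elsewhere. Without FAPi replicate 3 its log2 difference of 1.44 was 0.66. Cnpy4 had 174 ± 28.8 and 257 ± 137 CPM, and Dnajb14 586 ± 247 and 501 ± 193 CPM. Other isomerases and redox genes had 9 higher and 8 lower of 17. Ero1b, an oxidase that recharges protein disulfide isomerase, had 5.08, 2.10 and 3.66 CPM in DPBS and 16.9, 13.1, 4.76 and 15.4 CPM in FAPi libraries (log2 difference 1.79 ± 0.72, adjusted p = 0.563, edgeR). FAPi replicate 3 lay within the DPBS range. Pdia5 had 129.9 ± 9.14 and 178 ± 26.98 CPM without overlap, and Txndc5, the most abundant of that list by CPM, 1562 ± 671 and 1276 ± 561 CPM.

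Other degradation genes had 9 higher and 14 lower of 23 tested, with Derl2 at 267 ± 72.9 and 400.5 ± 90.9 CPM. Faf2 had 48.1 ± 4.29 and 77.1 ± 18.9 CPM without overlap. In N-glycosylation and the calnexin cycle 7 were higher and 9 lower of 16. Stt3a, the catalytic subunit of the glycosyltransferase at the translocon, had 131, 160 and 142 CPM in DPBS and 195, 229, 179 and 310.4 CPM in FAPi libraries, without overlap (log2 difference 0.66 ± 0.27, adjusted p = 0.574, edgeR). Dad1 had 212 ± 32.8 and 163 ± 19.4 CPM and Magt1 326 ± 93.4 and 277 ± 99.3 CPM. Translocon, signal peptidase and signal recognition genes had 10 higher and 11 lower of 21. Sec61g, the other small subunit of the channel, had 102, 167 and 97.3 CPM in DPBS and 75.9, 89.1, 66.4 and 65.4 CPM in FAPi libraries. The FAPi libraries all lay lower, by a log2 difference of -0.72 ± 0.30, and by -0.43 without DPBS replicate 2. Tram2 had 254 ± 140 and 436 ± 109 CPM and Ssr1 3564 ± 1205 and 4742 ± 1344 CPM.

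The ATF4 and amino acid response list had 14 higher and 10 lower of 24 tested, and its other 9 genes were too low to test. Among these, Atf3, Slc6a9 and Fgf21 were at 0 counts in every library. Gars had 32.3 ± 16.96 and 16.4 ± 4.68 CPM, a log2 difference of -0.98 that became -0.49 when DPBS replicate 3 was left out. Ddit4 had 94.6 ± 22.2 and 137 ± 36.5 CPM, and Nupr1 527 ± 112 and 531 ± 147 CPM. Other sensors, kinases and regulators had 11 higher and 9 lower of 20. Creb3l1, which encodes OASIS, an ER stress sensor of osteoblasts, was at 145 CPM in DPBS replicate 2, at 23.8 and 46.1 CPM in the other DPBS libraries and between 19.1 and 28.4 CPM in FAPi libraries. Its log2 difference of -1.63 ± 0.55 (adjusted p = 0.493, edgeR) was -0.60 without DPBS replicate 2. Nck1 had 16.1 ± 1.19 and 32.6 ± 19.3 CPM (log2 difference 1.02, or 0.52 when FAPi replicate 2 was left out), and Tmbim6 600.1 ± 19.4 and 574 ± 22.7 CPM. ER to Golgi transport genes had 17 higher and 6 lower of 23, with a median log2 difference of 0.10. Kdelr2, a receptor that returns escaped chaperones to the ER, had 2336, 2953 and 4079 CPM in DPBS and 3138, 8306, 4874 and 5470.2 CPM in FAPi libraries. The groups overlapped, and the log2 difference was 0.80 ± 0.32 (adjusted p = 0.563, edgeR). It was 0.52 without FAPi replicate 2. Mia3, which helps load collagen into transport carriers, had 128 ± 21.4 and 207 ± 92.6 CPM, a log2 difference of 0.69 that became 0.34 without FAPi replicate 1.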

How the data were processed

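For each of the 7 libraries the authors deposited raw counts per gene and, separately, CPM. Per the submitters' processing notes, STAR, HTSeq and mm10 were used. Annotation, strand setting and handling of shared reads: not given in the sources used here. Deposited count tables carry a name tag that reads as duplicate removal, which can compress the counts of abundant genes. The deposited CPM values equal counts per library total to within 4.55e-05 CPM; 6 of the 7 CPM tables repeat their last lines, of which first occurrences were kept.

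Symbols, exon lengths and coordinates came from GENCODE M21 (53706 of 53801 IDs matched). Counts were tested with edgeR 4.0.16 in R 4.3.3: filterByExpr (minimum count 10, which left 12930 genes), TMM factors, and the robust quasi-likelihood test of 4 FAPi against 3 DPBS libraries, with Benjamini-Hochberg adjustment and a threshold of 0.05. Log2 differences are FAPi minus DPBS; the SE is the absolute log2 difference over the square root of F; CPM in the text are TMM-normalised. Deviations used log2 CPM with a prior count of 2. The test was tried on simulated data. Exact permutation tests were two-sided over 35 splits. Alternatives were RLE or no scaling, no filter, DESeq2 1.42.0, limma 3.58.1 (voom with sample weights, and deposited CPM with pseudocounts of 1 and 0.5), a replicate block, each library left out, and a threshold of 0.1.

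Depth limits precision: 3 counts equal 0.284 to 0.400 CPM, and such floors cover counting error only. Exons of 11 of the 33 genes overlap other genes. A chi-square check of counts found no library deposited more than once. The promoter search was added after the members' values were seen. The members and lists were chosen with earlier results of these data known. The text names all members, and from each related list the 2 genes of smallest unadjusted p and the most abundant gene by CPM. Marker lists are given as sums, with the most abundant gene named for some of them.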

Additional observations from a re-analysis of the deposited data

Results flagged for a closer look

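Among the 4 FAPi libraries, a library was marked where its gap to the nearest of the other 3, as a share of the whole range, exceeded Dixon's 95% critical value. Of 30 members checked, 2 were marked, where chance marks about 1 in 20 groups, or 1.5 of 30. FAPi replicate 4 held 23.2 CPM of Eif2ak3, while the other 3 libraries held 15.2 to 16.5 CPM (gap 0.846 of the range). FAPi replicate 2 held 136 CPM of Dnajc3, while the other 3 libraries held 193 to 202 CPM (gap 0.864 of the range). The 3 DPBS libraries were too few for this check.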

How the results depend on the processing

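No member was called in any of the fits run, edgeR's 0 members included. Over all genes edgeR's count of 0 became 135 with DESeq2 (84 higher, 51 lower; 663 adjusted p-values were NA), 6 with no low-count filter, 6 with limma on deposited CPM at either pseudocount, 1 with voom weights, 1 at an adjusted p under 0.1 and 0 to 3 when 1 library was left out (3 without DPBS replicate 3). The median log2 difference of the members, 0.07, ran from -0.076 to 0.29 when 1 library was left out, the highest without DPBS replicate 3. Library totals without TMM factors moved the median of all genes from 0.01 to -0.16, and limma on deposited CPM moved it to -0.17 and -0.18 at pseudocounts of 1 and 0.5. The median of the members was then -0.090 with library totals, and -0.073 with limma on deposited CPM at either pseudocount. The sign of an estimate turned in 23 of 240 member values under other settings. With library totals, Calr was -0.0092, Dnajb11 -0.021, Hsp90b1 -0.14, Xbp1 -0.0011 and Dnajc3 -0.039. With limma on deposited CPM at pseudocounts of 1 and 0.5, Dnajb11 was -0.0098 and -0.0098, Hsp90b1 -0.123 and -0.123, Sel1l -0.022 and -0.023, Dnajc3 -0.017 and -0.017, Hyou1 0.22 and 0.23, and Ppp1r15a -0.34 and -0.37. With voom weights Ern1 was 0.063, Hspa5 0.026 and Hyou1 0.60. Leaving out 1 library turned the sign of 13 members, whose ranges were -0.0092 to 0.30 (Calr), -0.10 to 0.28 (Hsp90b1), -0.091 to 0.50 (Dnajc3), -0.22 to 0.076 (Derl1), -0.33 to 0.13 (Sdf2l1), -0.49 to 0.24 (Creld2), -0.0061 to 0.44 (Syvn1), -0.14 to 0.034 (P4hb), -0.63 to 0.086 (Ddit3), -0.37 to 0.32 (Hspa5), -0.69 to 1.46 (Hyou1), -0.63 to 0.86 (Ppp1r15a) and -0.26 to 0.34 (Atf4). Members that kept their sign but moved by over 1.5 times, beside those given in the report, ranged from 0.024 to 0.32 (Xbp1), 0.0096 to 0.46 (Sel1l), 0.047 to 0.34 (Dnajb11), 0.051 to 0.52 (Manf), -0.84 to -0.36 (Dnajb9) and -0.44 to -0.20 (Pdia3). Among related genes, Tram2 ranged from 0.43 to 1.25, Ssr1 from 0.17 to 0.66, Cnpy4 from 0.32 to 0.78, Ddit4 from 0.33 to 0.71 and Magt1 from -0.46 to -0.026, and Dnajb14 and Txndc5 turned to 0.064 and 0.056 without DPBS replicate 3. Where a sign turned, the cause was not tested. Samples with the same replicate number did not deviate together (correlations -0.01, -0.02 and -0.05); the replicate block, in which FAPi replicate 4 stands alone, gave 0 calls over all genes, and turned Sel1l to -0.015, Hyou1 to 0.71 and Atf4 to 0.082.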

Other observations

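The ERSE letters also occurred before the start sites of genes that are not members. Of the 35 genes in the promoter table with an exact match, 15 passed the low-count filter, 8 of them members and 7 not. DPBS replicate 3 was the highest library at 5 of the 8 members and at 0 of the 7 others, where it was highest at 13.7% of all tested genes. That library was singled out because it was high at the chaperone genes, Creld2, Dnajc3, Hsp90b1 and Hspa5 among them. The count among the 8 members therefore repeats those values and is no separate evidence. The 7 others were Acacb, Alg12, Calr4, Gm6566, Hnrnpa3, Pan2 and Xlr3b, and of these Acacb, Calr4, Gm6566 and Xlr3b were highest in DPBS replicate 2. Hnrnpa3 had 14.5 to 46.4 CPM, and no library of the other 6 exceeded the 31.4 CPM of Pan2 in FAPi replicate 3. In FAPi mice 5 of the 8 members had a higher and 3 a lower estimate, and 1 of the 7 others had a higher and 6 a lower estimate, with 0 of the 7 past the edgeR test (smallest adjusted p = 0.654; 0 at an unadjusted p under 0.05). The search was added after the values of the members were seen, and the difference between these sets was not tested.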
